A study of Rattus norvegicus with 12 samples.

Results

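Solute carriers move nutrients across cell membranes, and the genes described here are the carriers of amino acids, sugars and monocarboxylates such as lactate and pyruvate. They were taken by name: every gene with a probe set of a single gene symbol (the set with the highest mean where a gene had several) whose symbol starts with Slc1a, Slc2a, Slc3a, Slc5a, Slc6a, Slc7a, Slc16a, Slc36a, Slc38a or Slc43a. This rule found 87 of the 14506 genes measured, in 10 families. Of these 87, 51 were bright enough to be tested and 36 lay among the dimmest 30% of genes. The rule used no measured value beyond the choice of probe set, and it takes in Slc7a6os, which is named for its neighbour Slc7a6 and is not itself a carrier.

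RNA came from whole uteri of ovariectomized young adult female Lewis rats, so all groups lack the ovaries that are the main source of estrogens. The 4 groups of 3 rats received the vehicle DMSO, 17β-estradiol (E2, a daily dose of 4 µg/kg), 3-methylcholanthrene (3-MC, a daily dose of 15 mg/kg), or the 2 together (E2+3-MC). The aryl hydrocarbon receptor, a factor that responds to foreign aromatic compounds, is the known target of 3-MC. Dosing ran over 3 days and uteri were taken 24 h after the last dose, a design the labels give as 72 h of treatment. Each rat had 1 Affymetrix array, and the replicates are separate animals.

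The deposited values are intensities on a linear scale, and differences below are between group means of log2(intensity + 16) ± standard error (SE), which understates the change of dim genes. A gene was called when its limma adjusted p over all 10154 genes tested was under 0.05, and only called genes are said to have risen or fallen. Median array intensity ran from 86.3 to 124. The array of vehicle rat 1 had the widest spread of log2 values (interquartile range 2.70, others 1.87 to 2.35). This rat was the highest vehicle rat in 81% of all genes tested and in 72.5% of the 51 carriers, so values without it are given beside some of the carriers named below. A carrier named without such a value can depend on this rat as well. Vehicle rat 1 was the highest vehicle rat for all 8 carriers called lower with E2 and for 7 of the 9 called higher. All 12 measured markers of uterine epithelium and all 8 of smooth muscle passed the limit on dim genes. No gene of any cell type list read 0. Most genes pass this limit by its definition, so these readings cannot tell the uterus from another tissue.

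Carriers of the Slc2a family let glucose and related hexoses pass down their gradients, while many Slc5a, Slc1a, Slc6a and Slc38a members use the sodium gradient to pull sugars, inositol or amino acids in. Slc7a proteins that bind Slc3a2 exchange amino acids across the membrane, and several Slc16a members carry lactate, pyruvate and related acids together with protons. In the uterus, estradiol is known to raise glucose uptake and secretion into the lumen, and carriers of the lining epithelium help supply the fluid in which an embryo implants.

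The 250 bases before the annotated start are shown for 4 carriers on which the results turn, a pair that rose with estradiol (Slc6a14 and Slc16a3) and a pair that fell (Slc1a3 and Slc16a7). They come from RefSeq, build GRCr8, are written 5′ to 3′ on the gene's own strand, and lie upstream of the transcript. Of the 87 carriers 68 had such a window. The windows are chrX:117144676-117144925 on the plus strand for Slc6a14, chr10:106712078-106712327 on the plus strand for Slc16a3, chr2:59557809-59558058 on the minus strand for Slc1a3 and chr7:63040399-63040648 on the minus strand for Slc16a7. The windows of Slc6a14 and Slc16a7 precede a transcript start that is not the outermost end of the annotated gene. Capitals mark matches to any of 5 searched motifs.
Slc6a14: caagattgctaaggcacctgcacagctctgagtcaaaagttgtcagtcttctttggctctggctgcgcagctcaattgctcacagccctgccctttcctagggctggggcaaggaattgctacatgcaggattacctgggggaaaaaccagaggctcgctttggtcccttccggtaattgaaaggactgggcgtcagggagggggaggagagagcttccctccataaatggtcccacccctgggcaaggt
Slc16a3: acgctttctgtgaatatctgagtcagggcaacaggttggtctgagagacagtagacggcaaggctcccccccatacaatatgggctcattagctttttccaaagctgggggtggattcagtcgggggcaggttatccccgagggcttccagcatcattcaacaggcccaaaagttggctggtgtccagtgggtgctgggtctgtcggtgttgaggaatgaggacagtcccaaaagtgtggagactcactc
Slc1a3: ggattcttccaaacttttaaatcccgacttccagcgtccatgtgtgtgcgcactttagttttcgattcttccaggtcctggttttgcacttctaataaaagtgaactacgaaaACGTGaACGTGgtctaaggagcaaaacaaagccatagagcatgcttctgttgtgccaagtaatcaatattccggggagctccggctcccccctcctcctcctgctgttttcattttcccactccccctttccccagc
Slc16a7: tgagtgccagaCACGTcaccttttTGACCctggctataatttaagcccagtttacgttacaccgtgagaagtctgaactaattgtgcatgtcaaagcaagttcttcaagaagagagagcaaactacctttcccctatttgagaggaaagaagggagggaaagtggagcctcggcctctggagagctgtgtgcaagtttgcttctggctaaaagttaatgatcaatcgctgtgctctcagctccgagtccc
Each motif was searched on both strands. The estrogen response element GGTCANNNTGACC was in 0.0239% of all 33469 promoter windows and in 0 of the 68 carrier windows. Its shorter arm GGTCA was in 35.4% of all windows and in 24 of 68 carriers, among them Slc16a7, where it lies 226 to 222 bases before the start as TGACC. The arm is contained in the full element. The xenobiotic response core GCGTG was in 25.9% of all windows and 20 carriers, and in none of the 4 shown. The hypoxia response core ACGTG was in 16.6% of all windows and 17 carriers. It occurs in the Slc1a3 window at 137 to 133 and again at 131 to 127 bases before the start, and in the Slc16a7 window as CACGT at 239 to 235 bases. The antioxidant response core TGACNNNGC was in 10.1% of all windows and 9 carriers. A match describes these letters only, and a window without one says nothing about the factor.

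Estradiol changed 17 of the 51 tested carriers against vehicle, 9 upward and 8 downward. That is 33.3%, beside 18.1% of all genes tested (8.7% higher and 9.44% lower). Whole uterus was measured, so fewer or more cells of a type and less or more RNA per cell cannot be told apart. The 9 that rose were Slc6a14, Slc16a14, Slc16a3, Slc5a3, Slc2a1, Slc2a4, Slc43a2, Slc2a12 and Slc38a1, and the 8 that fell were Slc1a3, Slc7a8, Slc16a7, Slc43a3, Slc7a10, Slc16a11, Slc16a13 and Slc6a17. The median difference of the carriers was -0.17 against -0.11 for all genes, and the median size regardless of sign was 0.44 against 0.31. After median centring 15 carriers rose and 7 fell. The count was 26 without vehicle rat 1, when 34.9% of all genes were called, 10 without E2 rat 2 (11.3%) and 9 without E2 rat 3 (9.71%). The vehicle means of Slc6a14, Slc16a14, Slc16a3 and Slc43a2 lay under the limit on dim genes, as did the E2 means of Slc7a10 and Slc16a11. These 6 passed that limit through their higher groups, so their calls give no support to the count and the size of their changes is rough. The 3 rats of each group did not overlap for 26 of the 51 carriers (14 higher and 12 lower), beside 27.2% of all genes (10.1% and 17.1%).

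**Figure D1:**
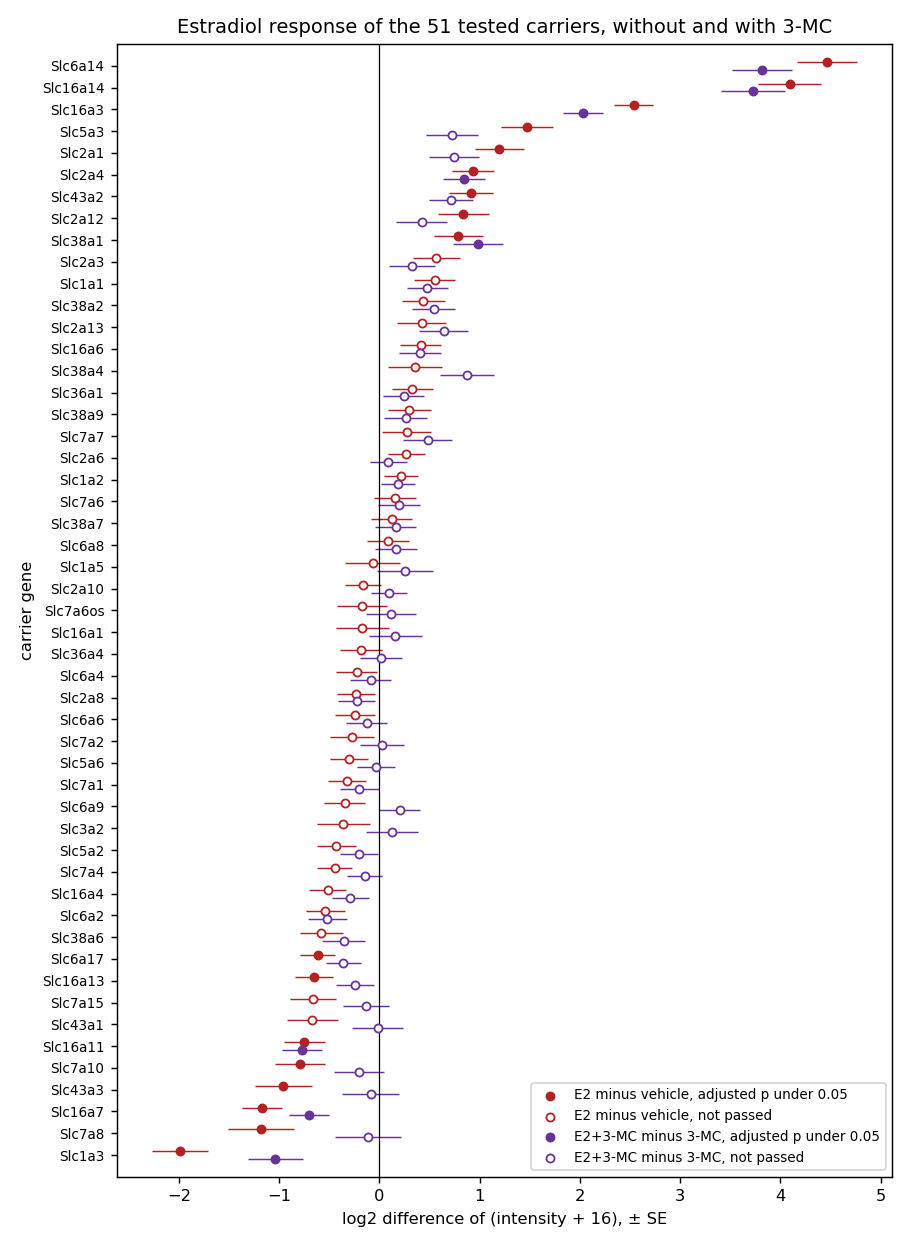
Each of the 51 tested carriers has a row; the horizontal axis is the log2 difference of (intensity + 16) ± SE for E2 minus vehicle (red) and E2+3-MC minus 3-MC (purple), and filled points have a limma adjusted p under 0.05. Slc6a14, Slc16a14 and Slc16a3 lie farthest to the right in both comparisons, and Slc1a3 lies farthest to the left.

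The Slc16a family, which holds the monocarboxylate carriers, split, with 2 of its 8 tested members higher and 3 lower with estradiol. Of all genes 8.7% were called higher and 9.44% lower. Slc16a3 (MCT4) is the carrier known for lactate export from glycolytic cells. Its intensity was 60.9, 61.0 and 41.2 in the vehicle rats and 344, 407 and 418 in the E2 rats. It was 53.1, 55.1 and 45.1 with 3-MC and 268, 211 and 302 with both compounds. All 6 estradiol-treated rats were thus above all 6 others, and every rat given both compounds was below every rat given E2. Slc16a3 rose by 2.54 ± 0.19 (limma adjusted p = 7.84e-08), a rough size since the rats without estradiol lay under the limit on dim genes. Against 3-MC it rose by 2.03 ± 0.19 (limma adjusted p = 1.85e-06) and against vehicle by 1.97 ± 0.19 (2.43e-06) with both compounds.

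Slc16a14 is an orphan member whose substrate is less settled. The vehicle rats read 31.2, 25.8 and 23.3, the E2 rats 875, 558 and 735, the 3-MC rats 15.9, 14.2 and 25.0, and the E2+3-MC rats 379, 249 and 859.6. The estradiol-treated rats again lay above all others, and those with both compounds spread over the widest range. The log2 difference was 4.09 ± 0.32 (limma adjusted p = 8.48e-08) for E2 over vehicle and 3.73 ± 0.32 (4.26e-07) for both compounds over 3-MC. Both group means without estradiol lay under the limit on dim genes, so these sizes are rough.

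Slc16a7 (MCT2), a high-affinity pyruvate and lactate carrier whose upstream window is printed above, went the other way. Its intensities were 284, 164 and 184 with vehicle and 79.6, 82.7 and 83.5 with E2. With 3-MC they were 183, 175 and 199, and with both compounds 107, 120.1 and 98.1. The groups with estradiol lay below the groups without it, and the rats with both compounds lay between. It fell by 1.17 ± 0.20 on the log2 scale (limma adjusted p = 0.000506) with E2 and by 0.70 ± 0.20 (0.0376) with both compounds against 3-MC. The call of E2+3-MC against vehicle was lost without E2+3-MC rat 1 or rat 3 and with only the groups compared in the fit. The call against 3-MC rests near the threshold, with values between -0.77 and -0.53 over 21 alternatives. It was lost in 9 of them: without any 1 of 7 rats, among them each 3-MC rat, with offset 64 and with the dimmest 50% left out.

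Slc16a11, linked to pyruvate transport in liver, fell by 0.75 ± 0.20 with E2 (limma adjusted p = 0.0161) and by 0.77 ± 0.20 with both compounds against 3-MC (0.0227). Its intensities were 124, 115 and 96.8 with vehicle and 68.5, 60.5 and 51.8 with E2. They were 133, 138 and 124 with 3-MC and 62.0, 99.5 and 55.9 with both. Only 1 rat given both compounds, at 99.5, reached the vehicle range. The E2 call was lost without E2 rat 3 and with only the groups compared in the fit. The call against 3-MC was lost in 5 of 20 alternatives, those without any 1 of the 3-MC rats or without E2+3-MC rat 1 or rat 3 (highest limma adjusted p = 0.161). Slc16a13 fell by 0.65 ± 0.19 with E2 (limma adjusted p = 0.024) and differed by -0.24 ± 0.19 against 3-MC (0.565). The E2 call was lost in 4 of 20 alternatives, among them without vehicle rat 2, E2 rat 2 or E2 rat 3 (highest limma adjusted p = 0.143). Slc16a1 (MCT1), the most widespread lactate carrier, ran from 196 to 396 with vehicle and from 208 to 266 with E2. Its difference of -0.17 ± 0.26 was not called (limma adjusted p = 0.693), and it was 0.13 without vehicle rat 1.

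Members of Slc16a work with small membrane glycoproteins, embigin (Emb) and basigin (Bsg), that bring them to the surface. Emb rose by 1.42 ± 0.27 with E2 (limma adjusted p = 0.00135) and by 1.26 ± 0.27 with both compounds against 3-MC (0.00596). Bsg, named here although it was not called, differed by 0.66 ± 0.32 (limma adjusted p = 0.169). Ldha, the lactate dehydrogenase subunit associated with making lactate, rose by 1.30 ± 0.29 with E2 (limma adjusted p = 0.00418). Ldhb, the subunit of oxidative tissues, fell by 0.77 ± 0.26 (limma adjusted p = 0.0491), and its value against 3-MC was -0.15 ± 0.26.

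**Figure D2:**
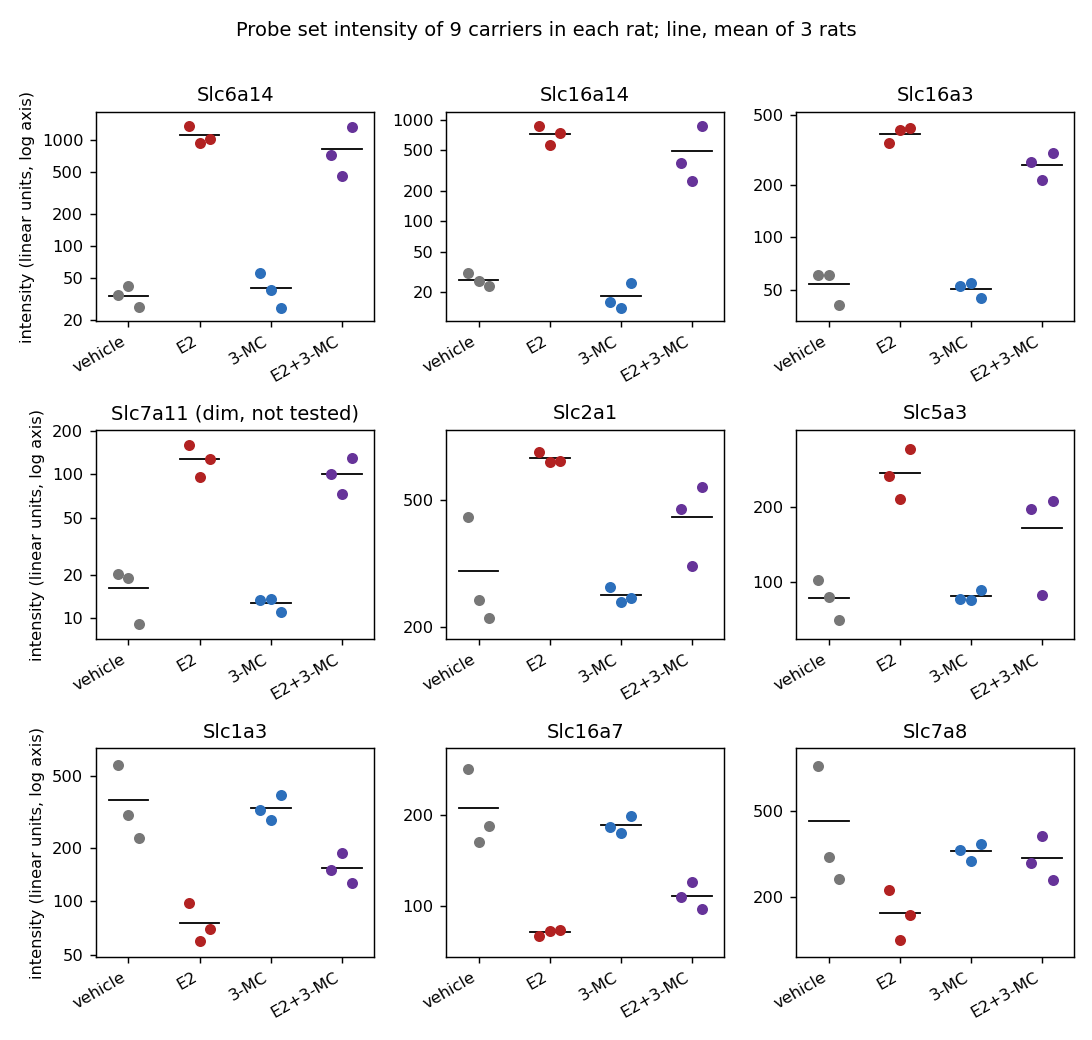
Probe set intensity in linear units on a log axis for 9 carriers, with 1 point per rat and a line at the mean of 3 rats; groups are vehicle, E2, 3-MC and E2+3-MC. Slc6a14, Slc16a14, Slc16a3 and the dim Slc7a11 separate the rats with estradiol from those without. Vehicle rat 1 is the highest point of its group for Slc1a3, Slc16a7 and Slc7a8, and also for Slc16a14, Slc7a11, Slc2a1 and Slc5a3.

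Among the amino acid carriers Slc6a14 rose with estradiol. It takes up neutral and basic amino acids with sodium and chloride. Slc6a14 read 34.4, 41.8 and 26.6 with vehicle and 1356, 927 and 1018 with E2. With 3-MC it read 55.4, 38.5 and 26.4, and with both compounds 716, 459 and 1308. No rat without estradiol came near a rat with it. The difference was 4.47 ± 0.30 for E2 over vehicle (limma adjusted p = 1.64e-08) and 3.82 ± 0.30 for both compounds over 3-MC (1.9e-07). Both group means without estradiol lay under the limit on dim genes, so these sizes are rough too.

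The other Slc6a members carry neurotransmitters, taurine, creatine and amino acids. Of the remaining 6 tested ones 1 was called, beside 18.1% of all genes. Slc6a17, known from synaptic vesicles, read 136, 117 and 102 with vehicle and 74.6, 71.6 and 67.4 with E2, without overlap. It read 129.8, 111 and 114 with 3-MC and 95.3, 85.8 and 85.2 with both compounds. It fell by 0.62 ± 0.17 with E2 (limma adjusted p = 0.0204), and its value of -0.36 ± 0.17 against 3-MC did not pass (0.264). The E2 call was lost in 4 of 20 alternatives, among them without vehicle rat 2, E2 rat 2 or E2 rat 3 (highest limma adjusted p = 0.153). The taurine carrier Slc6a6 ranged from 214 to 315 with vehicle and from 199.6 to 268 with E2, and its difference of -0.24 ± 0.20 was not called (0.43) and was -0.12 without vehicle rat 1.

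Slc1a3 (GLAST), a sodium-coupled carrier of glutamate and aspartate, had the largest fall of any member. Its intensities were 583, 304 and 228 with vehicle and 97.5, 60.2 and 70.4 with E2. They were 323, 285 and 392 with 3-MC and 150.1, 186 and 127 with both compounds. The 4 groups formed 3 levels, with the rats on both compounds above every E2 rat and below every rat without estradiol. It fell by 1.99 ± 0.28 with E2 (limma adjusted p = 7.73e-05), by 1.04 ± 0.28 against 3-MC (0.0248) and by 1.09 ± 0.28 against vehicle (0.0182) with both. Without vehicle rat 1 the E2 difference was -1.62 and that of both compounds against vehicle -0.73. The call of both compounds against vehicle was lost without E2+3-MC rat 1 or rat 3 and with only the groups compared in the fit (highest limma adjusted p = 0.143). The call against 3-MC was lost without any 1 of the 3-MC rats, and without E2+3-MC rat 1 or rat 3, with a highest limma adjusted p of 0.138 over the alternatives.

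Slc1a1 (EAAT3), another glutamate carrier, read 198, 194 and 183 with vehicle and 365, 245 and 269 with E2, without overlap, but its 0.55 ± 0.20 missed the threshold (limma adjusted p = 0.0701). It was called at 0.57 after quantile normalization. The glutamine carrier Slc1a5 (ASCT2) differed by -0.07 ± 0.28 (limma adjusted p = 0.894), and the sign of this value turned after quantile normalization, after median centring and without vehicle rat 1, where it was 0.36. Vehicle rat 1 read 522 for Slc1a5 and the other vehicle rats 203 and 210.4.

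Slc38a1 and Slc38a2 take up glutamine and other small neutral amino acids with sodium. Slc38a1 read 881, 559 and 425 with vehicle and 1134, 941 and 1047 with E2. It read 612, 551 and 549 with 3-MC and 1114, 880.1 and 1521 with both compounds. The groups with estradiol lay above the 3-MC rats, while vehicle rat 1 came up to the lowest rat of the E2+3-MC group. Slc38a1 rose by 0.79 ± 0.25 with E2 (limma adjusted p = 0.0352), by 0.98 ± 0.25 against 3-MC (0.0175) and by 0.92 ± 0.25 against vehicle (0.0261) with both. The E2 call was lost in 9 of 21 alternatives, among them without vehicle rat 2 or 3 and without each E2 rat, with limma adjusted p between 0.000236 and 0.122. The calls against 3-MC and against vehicle were each lost in 5 of 21, among them without E2+3-MC rat 1 or rat 3, with highest limma adjusted p of 0.136 and 0.2. The call against 3-MC was also lost without any 1 of the 3-MC rats, and the call against vehicle without vehicle rat 2 or rat 3. Slc38a2, which cells raise when amino acids run short, ran from 1034 to 1673 with vehicle and from 1541 to 1939 with E2. Its 0.44 ± 0.22 was not called (limma adjusted p = 0.176).

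The genes of the Slc7a name and Slc3a2 (4F2hc), the heavy chain that carries the family's exchangers to the membrane, gave 2 falls and no rise among 10 tested genes. Of all genes 9.44% were called lower and 8.7% higher. These 10 include Slc7a1, Slc7a2 and Slc7a4, which are of the cationic carrier branch and not partners of Slc3a2, and Slc7a6os. Slc7a8 (LAT2), an exchanger of neutral amino acids, read 814, 305 and 241 with vehicle and 214, 127 and 164 with E2. It read 329.5, 294 and 354 with 3-MC and 289, 385 and 239 with both compounds. Vehicle rat 1 was far above the other vehicle rats, and the E2 rats were the lowest of all. Slc7a8 fell by 1.18 ± 0.33 on the log2 scale with E2 (limma adjusted p = 0.02). Without vehicle rat 1 the difference was -0.67 and still called. The call was lost without E2 rat 2, without E2 rat 3 and with only the groups compared in the fit (highest limma adjusted p = 0.102).

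Slc7a10, a carrier of small neutral amino acids including glycine and D-serine, read 135, 93.1 and 76.0 with vehicle and 62.3, 52.9 and 37.8 with E2. It read 89.2, 79.7 and 81.1 with 3-MC and 75.7, 101 and 43.3 with both. Its fall of 0.80 ± 0.25 on the log2 scale (limma adjusted p = 0.035) was lost in 9 of the 19 alternatives that tested it. Without vehicle rat 1, its highest vehicle rat, Slc7a10 lay among the dim genes and was not tested. Whether its call depends on this rat is thus not known. Slc3a2 read 901 in vehicle rat 1 and 357 to 469.8 in the other 11 rats. Its difference of -0.36 ± 0.26 (limma adjusted p = 0.368) became 0.05 without vehicle rat 1. The cationic carrier Slc7a1 (CAT1) differed by -0.33 ± 0.19 (limma adjusted p = 0.254), or -0.17 without vehicle rat 1. Slc7a5 (LAT1), the partner of Slc3a2 best known for growing cells, was among the dim genes at 34.2 to 76.8 over all rats, with a value of 0.42 ± 0.20 outside the tests.

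Slc7a11 is the cystine and glutamate exchanger that supplies cysteine for glutathione, and its mean over all rats lay under the limit on dim genes, so it was not tested. Its intensities were 20.3, 19.1 and 9.09 with vehicle, and 159, 95.8 and 127 with E2. They were 13.4, 13.6 and 11.0 with 3-MC, and 100.5, 72.4 and 129 with both compounds. The 6 rats with estradiol lay above the 6 without it. The log2 difference was 2.15 ± 0.22 for E2 over vehicle and 1.99 ± 0.22 for both compounds over 3-MC, rough sizes set against levels near the background. It was called in both comparisons when no gene was left out as dim. Gclm, a subunit of the enzyme that starts glutathione synthesis, rose by 1.00 ± 0.26 with E2 (limma adjusted p = 0.0123) and by 1.31 ± 0.26 against 3-MC (0.00335), while Cdo1, which breaks cysteine down, fell by 2.01 ± 0.66 with E2 (0.0434) and stood at 1.03 ± 0.66 against 3-MC (0.45).

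The Slc43a family holds 3 genes, all tested, and they did not move together. Slc43a2 (LAT4), which lets branched-chain and aromatic amino acids out of cells, read 93.4, 68.8 and 38.6 with vehicle and 147, 128 and 129 with E2. It read 72.4, 70.7 and 72.7 with 3-MC and 123, 116 and 149 with both. The groups with estradiol lay above those without. It rose by 0.92 ± 0.22 with E2 (limma adjusted p = 0.00799) and by 0.86 ± 0.22 with both compounds over vehicle (0.0209), while 0.72 ± 0.22 against 3-MC did not pass (0.056). The E2 call was lost with only the groups compared in the fit (limma adjusted p = 0.053). The call against vehicle with both compounds was lost in 4 of 20 alternatives, among them without vehicle rat 3 and without E2+3-MC rat 1 or rat 3.

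Slc43a3, a carrier of purine nucleobases, read 500.1, 216 and 197 with vehicle and 195, 99.7 and 127 with E2. It read 206, 203 and 212 with 3-MC and 173, 200.03 and 209 with both compounds. The E2 rats lay below the vehicle rats by a narrow margin, and the other groups reached the lower vehicle values. It fell by 0.96 ± 0.29 with E2 (limma adjusted p = 0.0274), and the difference was -0.55 without vehicle rat 1. The call was lost without E2 rat 2 or E2 rat 3 and with only the groups compared in the fit (highest limma adjusted p = 0.142). Slc43a1 (LAT3) differed by -0.67 ± 0.26 with E2 (limma adjusted p = 0.0804), and by -0.33 without vehicle rat 1. Of the 2 tested Slc36a members, proton-coupled amino acid carriers, neither was called, and Slc36a1, found on lysosomes, differed by 0.33 ± 0.20 (limma adjusted p = 0.282).

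Slc16a10 (TAT1), which carries aromatic amino acids despite its family, was left out as dim. Its intensities were 125, 86.3 and 80.4 with vehicle and 36.2, 26.2 and 30.9 with E2. They were 103, 75.2 and 70.2 with 3-MC and 44.7, 37.8 and 43.9 with both compounds, so rats with estradiol lay below the rest. The differences of -1.25 ± 0.19 and, against 3-MC, -0.75 ± 0.19 were called when no gene was left out as dim.

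Sugar carriers that were called all rose with estradiol, 3 of 8 tested Slc2a members and 1 of 3 tested Slc5a members. Of all genes 8.7% were called higher and 9.44% lower. The median E2 difference was 0.49 for the tested Slc2a members and -0.30 for the tested Slc5a members. Slc2a1 (GLUT1), the basal glucose carrier of most cells, read 440.4, 243 and 214 with vehicle and 705, 657 and 658 with E2. It read 266, 239.6 and 247 with 3-MC and 466, 309.95 and 548 with both compounds. The E2 rats stood above all others, and the rats with both compounds lay below them and above the 3-MC rats. Slc2a1 rose by 1.20 ± 0.25 with E2 (limma adjusted p = 0.00276). With both compounds the values were 0.74 ± 0.25 over 3-MC (0.0816) and 0.57 ± 0.25 over vehicle (0.216), and both passed without vehicle rat 1, at 0.74 and 0.87.

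Slc2a4 (GLUT4), the insulin-responsive carrier of muscle and fat, read 100.5, 66.4 and 67.4 with vehicle and 217, 139 and 139 with E2. It read 77.8, 61.4 and 73.4 with 3-MC and 148, 144 and 128 with both. All 6 rats with estradiol lay above all 6 without. It rose by 0.93 ± 0.21 with E2 (limma adjusted p = 0.00489), by 0.85 ± 0.21 over 3-MC (0.0159) and by 0.75 ± 0.21 over vehicle (0.0346) with both. The 3-MC mean lay under the limit on dim genes, so the size over 3-MC is rough. The call over 3-MC was lost without 3-MC rat 2 or E2+3-MC rat 1. The last call was lost in 10 of 20 alternatives, among them without each E2+3-MC rat. Slc2a12 (GLUT12) read 246, 202 and 141 with vehicle and 397, 325 and 347 with E2. It read 239.7, 223 and 220.4 with 3-MC and 245, 242 and 502 with both, where 1 rat stood far above the other 2. It rose by 0.84 ± 0.25 with E2 (limma adjusted p = 0.0302). This call was lost without any 1 of the E2 rats, without vehicle rat 2 or 3 and with only the groups compared in the fit. Over the alternatives the limma adjusted p ran from 0.0018 to 0.0972. Slc2a3 (GLUT3), a high-affinity glucose carrier, had E2 rats at 129.9, 89.6 and 85.6 just above vehicle rats at 66.9, 83.6 and 42.3. Its 0.57 ± 0.23 did not pass (limma adjusted p = 0.101), and it was called at 0.71 after quantile normalization.

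Slc5a3 (SMIT1) takes up myo-inositol, an osmolyte and precursor of phosphoinositides. It read 103, 87.6 and 70.8 with vehicle and 264, 214 and 338 with E2. It read 86.3, 84.8 and 92.9 with 3-MC and 195, 89.5 and 210.4 with both compounds. The E2 rats stood above all other rats, and 1 of the rats with both compounds remained at the level of the rats without estradiol. It rose by 1.47 ± 0.26 with E2 (limma adjusted p = 0.000707), and the values of 0.72 ± 0.26 over 3-MC (0.108) and 0.75 ± 0.26 over vehicle (0.0968) did not pass. Slc5a1 (SGLT1), the sodium-glucose carrier of gut epithelium, was dim, at 36.7 to 85.5 over all rats.

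The comparison of E2+3-MC with 3-MC asks what estradiol does when 3-MC is present, and it shares no rat with E2 against vehicle. Both comparisons still use 1 estimate of the spread, made from all 12 arrays, so their calls are not fully separate. Against 3-MC, 8 of the 51 carriers were called, 5 higher and 3 lower, or 15.7% beside 8.21% of all genes (6.82% higher and 1.39% lower). The 3-MC means of Slc6a14, Slc16a14, Slc16a3 and Slc2a4 and the E2+3-MC mean of Slc16a11 lay under the limit on dim genes. These carriers passed that limit through their higher groups, so their calls give no support to this count or to the agreement below. All 8 had been called in the same direction for E2 against vehicle, which is 100% of the 8 and 47.1% of the 17. For all genes the shares were 88.7% of 834 and 40.2% of 1842. The other 9 carriers called for E2 against vehicle had the same sign, and over all 51 the sign was shared by 43 (84.3%, beside 75.6% of all genes). The count of 8 became 15 without vehicle rat 1, when 21.4% of all genes were called. It was 4, 3 and 4 without 3-MC rats 1, 2 and 3 (4.87%, 4.07% and 6.08% of all genes) and 3 and 4 without E2+3-MC rats 1 and 3 (4.82% and 4.35%). E2+3-MC against vehicle called 8 carriers, 6 higher and 2 lower (15.7% beside 7.84% of all genes, 6.06% higher and 1.78% lower). Here the vehicle means of Slc6a14, Slc16a14, Slc16a3 and Slc43a2 lay under the limit on dim genes, so their calls give no support to the count. This count against vehicle became 19 without vehicle rat 1 (26.6% of all genes), 5 without vehicle rat 3 (6.44%), and 3 without E2+3-MC rat 1 (4.53%) or rat 3 (4.31%). Slc1a3, Slc2a4, Slc6a14, Slc16a14, Slc16a3, Slc16a7 and Slc38a1 were called in all 3 comparisons of an estradiol group with a group without it. The E2+3-MC and vehicle rats did not overlap for 20 carriers, 15 higher and 5 lower, beside 17.9% of all genes (10.7% and 7.18%). Between E2+3-MC and 3-MC they did not overlap for 27 carriers, 17 higher and 10 lower, beside 37.3% (25.7% and 11.6%). After quantile normalization the count called against vehicle was 22, with 14 higher and 8 lower, and after median centring 7 were higher and 4 lower.

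3-MC alone called 0 carriers against vehicle, as it called 0% of all genes, and no carrier had an unadjusted p under 0.05 (82 of all genes did). The largest values were -0.40 ± 0.29 for Slc43a3, 0.34 ± 0.20 for the lysosomal glutamine carrier Slc38a7 and -0.33 ± 0.26 for Slc3a2. Without vehicle rat 1 the first and last were 0.00 and 0.07. Slc38a7 read 90.7, 101 and 63.8 with vehicle and 108, 107 and 117 with 3-MC, without overlap. Slc38a7 was 1 of 3 carriers whose 3-MC rats all lay above the vehicle rats, beside 2.56% of all genes, and 0 lay all below, beside 0.542% (3.1% of all genes either way).

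E2+3-MC against E2, the effect of 3-MC when estradiol is present, also called 0 carriers and 0% of all genes. Here 9 carriers and 937 of all genes had an unadjusted limma p under 0.05, and the smallest adjusted p of a carrier was 0.488. The median of all genes was 0.15, and -0.01 after quantile normalization, so values are to be read relative to that shift. The largest were 0.89 ± 0.28 for Slc1a3, 0.80 ± 0.33 for Slc7a8 and -0.73 ± 0.26 for Slc5a3. After quantile normalization they were 0.66, 0.63 and -0.89. The groups did not overlap for 13 carriers (10 higher and 3 lower), or 25.5% beside 17.9% of all genes (16.7% and 1.17%). The 3 lower ones, Slc16a3, Slc2a1 and Slc5a3, are carriers that rose with E2. Both comparisons use the same E2 rats, so high readings in these rats favour both results, and their overlap is not separate support. Without vehicle rat 1, which sits in neither group but enters the estimate of the spread, Slc1a3 and Slc7a8 were called as higher, 2 of 50 carriers tested, beside 1.15% of all genes.

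The interaction asks whether 3-MC acts differently with and without estradiol. It called 0 carriers and 0% of all genes, with 3 carriers and 298 of all genes at an unadjusted limma p under 0.05. The largest values were 1.06 ± 0.47 for Slc7a8, 0.95 ± 0.39 for Slc1a3 and 0.87 ± 0.40 for Slc43a3, where the median of all genes was 0.19. Without vehicle rat 1 they were 0.55, 0.58 and 0.46. The smallest limma adjusted p of a carrier was 0.977, so a smaller estradiol response with 3-MC was not shown for any of them.

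**Figure D3:**
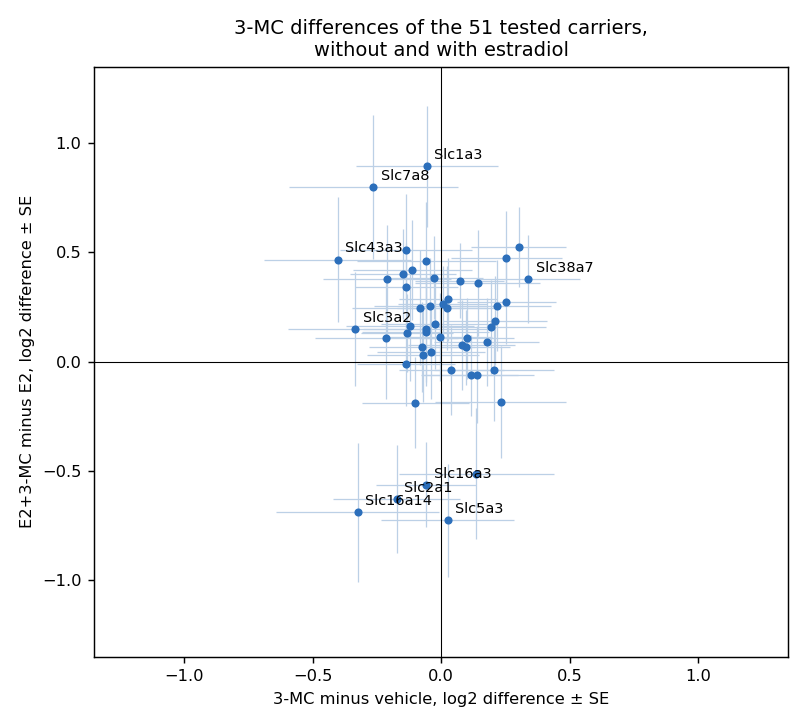
Each point is 1 of the 51 tested carriers; the horizontal axis is the log2 difference 3-MC minus vehicle and the vertical axis is E2+3-MC minus E2, both with bars of 1 SE. No carrier passed the test on either axis, and the vertical values run from -0.73 for Slc5a3 to 0.89 for Slc1a3.

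Genes that work with the carriers were followed in 5 lists, whose counts are to be set beside the 18.1% of all genes called with E2 and the 8.21% called against 3-MC. Of 31 tested genes of hexose handling, 6 rose and 3 fell with E2, with a list median of 0.06. Against 3-MC 4 rose and 0 fell. Ldha, the phosphofructokinase gene Pfkp (1.17 ± 0.25) and the glycogen phosphorylase gene Pygl (1.02 ± 0.31) rose with E2, and the aldolase gene Aldoc fell by 1.25 ± 0.38. The list of amino acid metabolism, with 25 tested genes, had 6 rises and 3 falls with E2 and 5 rises against 3-MC. Bcat1, which transaminates branched-chain amino acids in the cytosol, rose by 4.22 ± 0.28 (limma adjusted p = 1.29e-08). Ass1, which makes argininosuccinate on the route to arginine, rose by 3.96 ± 0.28 (2.92e-08). Both rose against 3-MC too, by 3.62 ± 0.28 and 3.37 ± 0.28. Arg2, the mitochondrial arginase, fell by 2.49 ± 0.33 with E2, and its value against 3-MC was -0.50 ± 0.33.

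In the list of the amino acid stress response, whose genes are switched on by the factor ATF4 when amino acids run short, 1 of 22 tested genes rose and 5 fell with E2, beside 8.7% of all genes higher and 9.44% lower. Nupr1, a stress-induced chromatin protein, rose by 1.33 ± 0.26. Psat1 and Psph, enzymes of serine synthesis, fell by 1.74 ± 0.32 and 1.13 ± 0.25, and the factor gene Atf5 fell by 1.17 ± 0.25. With both compounds, 2 genes of this list rose and 0 fell against 3-MC, beside 6.82% and 1.39% of all genes. Against vehicle 2 rose and 1 fell with both compounds, beside 6.06% and 1.78%. Slc7a11 is itself a known target of ATF4. Of 19 aminoacyl-tRNA synthetases 2 rose with E2, Wars1 by 1.29 ± 0.34 and Rars1 by 1.07 ± 0.25, beside 18.1% of all genes called. Among 21 tested partners and regulators of carriers 4 rose and 2 fell. Beside Emb these included Arrdc4, an arrestin relative linked to glucose uptake (1.14 ± 0.23), the kinase gene Sgk1, which regulates several carriers (1.00 ± 0.33), and Rragd, a GTPase of amino acid sensing, which fell by 1.01 ± 0.20. No list had a call for 3-MC against vehicle.

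**Figure D4:**
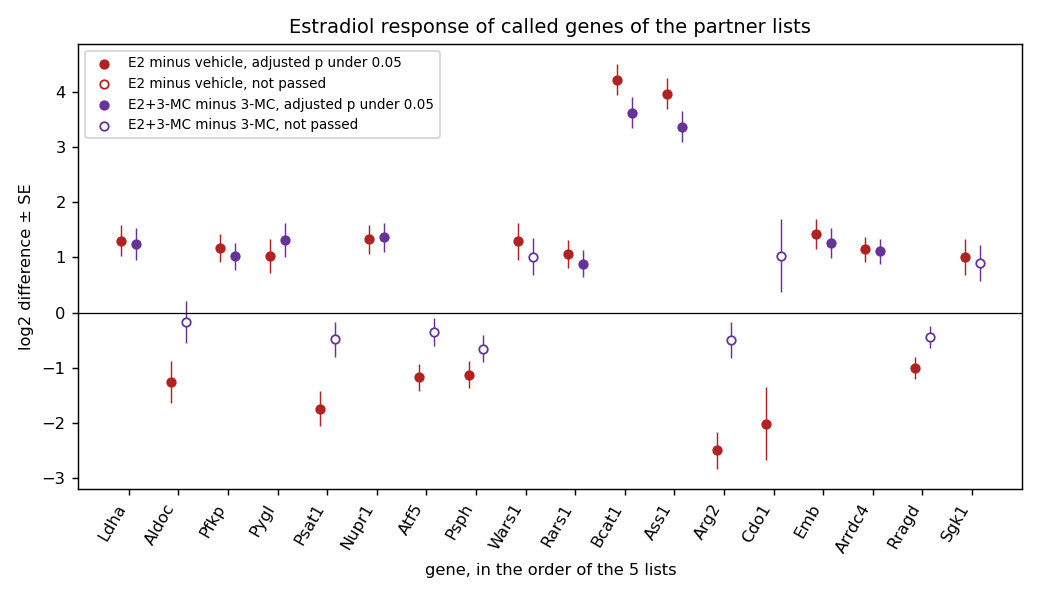
Log2 difference ± SE for up to 4 called genes per list with the largest E2 minus vehicle difference, in the order hexose handling, stress response, tRNA synthetases, amino acid metabolism and carrier partners; red is E2 minus vehicle, purple is E2+3-MC minus 3-MC, and filled points have a limma adjusted p under 0.05. Bcat1 and Ass1 lie highest at 4.22 and 3.96, and the genes that fell with E2 have open purple points.

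Of 12 markers of uterine epithelium 8 rose with E2, beside 8.7% of all genes, and their summed intensity ran from 4037 to 8287 with vehicle, 14581 to 17333 with E2, 3698 to 4892 with 3-MC and 7764 to 15175 with both compounds. E2+3-MC rat 2, the lowest of its group for Slc6a14, Slc16a14, Slc16a3 and Slc5a3, had the lowest epithelial sum of its group, 7764. Other rats did not follow this order. Vehicle rat 1 had a higher sum, 8287, but read only 34.4 for Slc6a14, 31.2 for Slc16a14 and 60.9 for Slc16a3. For Slc5a3 it read 103, above the 89.5 of E2+3-MC rat 2. E2 rat 1 had the highest sum, 17333, and the lowest Slc16a3 of the E2 rats, 344. Against 3-MC, 6 of the 12 epithelial markers rose with both compounds, beside 6.82% of all genes. The E2 counts of the lists that follow are to be set beside 8.7% of all genes higher and 9.44% lower. Of 8 endothelial markers 7 fell with E2 and 0 were called against 3-MC, beside 8.21% of all genes called there. Their sums ran from 2603 to 4971 with vehicle, 1688 to 1860.0 with E2, 2613 to 2992 with 3-MC and 2039 to 2255 with both. Of 7 tested adipocyte markers 4 fell with E2. Their sum was 16258 in vehicle rat 1 and 2454 and 3369 in the other vehicle rats, with ranges of 2904 to 3163 with E2, 1045 to 6216 with 3-MC and 4049 to 7923 with both. All 3 mesothelial markers fell with E2, with sums of 1156 to 2320 with vehicle, 535 to 722 with E2, 1272 to 1642 with 3-MC and 892 to 1055 with both. Of the other lists, 2 of 4 peripheral nerve markers and both tested red cell markers fell with E2, 2 of 7 macrophage markers rose, 2 granulocyte markers rose and 1 fell of 3, and 0 of 4 lymphocyte markers were called. Among stromal markers 1 of 9 rose, and among smooth muscle markers 2 of 8. The part of these shifts in the carrier results was not tested.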

How the data were processed

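Total RNA of 12 rat uteri was hybridised to Affymetrix arrays, 1 per rat. The deposited intensity values are linear summaries per probe set, made with Affymetrix Expression Console and PLIER per the submitters' processing notes; a genome build, versions and between-array scaling are not stated in the labels or notes used. Of 29214 probe sets, 15310 had 1 gene symbol in the platform annotation, 323 several and 13581 none, and only the first were used. Of these 15279 matched RefSeq genes of assembly GRCr8 by gene identifier and 31 did not. A probe set shared by Slc16a5 and Armc7 was thus left out. For 527 genes with several probe sets the one with the highest mean was kept.

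Intensities were taken as log2(intensity + 16), and genes in the dimmest 30% by mean over all arrays (under 6.44) were left out. In R 4.3.3, limma 3.58.1 (lmFit and eBayes) was fitted to all 12 arrays with 1 mean per group, which leaves 8 residual degrees of freedom (prior 8.92). P-values were two-sided and adjusted by Benjamini-Hochberg over 10154 genes. The number of arrays limits the precision (median SE of a difference 0.22). Groups were compared without pairing.

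The members, the gene lists and the alternatives were chosen with earlier results of these data known. Named were 18 carriers whatever their result, up to 3 called members per family with every rat's value, further called members, the 3 largest values where none was called, up to 4 called genes per partner list, and dim members whose groups are apart by over 1. Bsg, Ldhb and Gclm, and members outside this rule, were picked with their values known. The alternatives were quantile normalization, median centring, offset 64, other limits on dim genes, another choice of probe set, eBayes with trend and robust, only the groups compared, a replicate block, and leaving out each rat.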

Additional observations from a re-analysis of the deposited data

How the results depend on the processing

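Over 3434 recomputed values of named carriers by comparison, 3209 kept their call and direction, or stayed uncalled and moved by less than 1 SE. Of the rest, 92 lost and 61 gained a call, 72 stayed uncalled and moved further, and 0 reversed a called direction. The counts of carriers called, given below, are not among these values. Slc6a14, Slc16a14 and Slc16a3 were called in all 3 comparisons of an estradiol group with a group without it under every alternative in which they were tested, as were Slc1a3, Slc2a1, Slc2a4, Slc5a3 and Slc16a7 for E2 against vehicle. The number of carriers called for E2 against vehicle, E2+3-MC against vehicle and E2+3-MC against 3-MC was 17, 8 and 8. It was 30, 22 and 19 after quantile normalization, when 38.4%, 26.1% and 26.1% of all genes were called. It was 10, 5 and 5 with the dimmest 50% left out, when 28 carriers were tested. It was 8, 3 and 16 with only the groups compared in the fit, which then also called 2 carriers, Slc1a3 and Slc7a8, for E2+3-MC against E2 (144 of all genes). Leaving out 1 rat at a time gave 9 to 26, 3 to 19 and 3 to 15, and 0 to 2 for E2+3-MC against E2. No alternative called a carrier for 3-MC against vehicle or for the interaction. Median centring gave 22, 11 and 11, offset 64 gave 16, 7 and 7, no limit on dim genes 22, 10 and 10, another choice of probe set 17, 8 and 8, and eBayes with trend and robust 21, 10 and 10. With the replicate number as a block the counts were 23, 10 and 12, and 0 elsewhere. All genes were then called at 25.1%, 10.7% and 11.2%. The labels state no pairing by number, and the values do not settle it. Correlations of same-numbered deviations ran from -0.271 to 0.181, and in no comparison were all above 0.1. Between E2+3-MC and 3-MC each rat correlated best with its own number, as did rats 2 and 3 between E2+3-MC and E2. That is a hint from the data and not the design. The cause of these shifts was not tested. Dim carriers sit near the background, which limits what their values can show.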

Other observations

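Of the 36 dim carriers, 11 had E2 rats that all lay below the vehicle rats and 1, Slc7a11, had E2 rats that all lay above them, beside 22.4% and 2.92% of all 4352 dim genes. For E2+3-MC against E2, 19 dim carriers had rats that all lay higher and 0 had rats that all lay lower, beside 30.8% and 0.551% of all dim genes. With no gene left out as dim, Slc2a2, Slc5a8 and Slc5a10 were also called as lower for E2 against vehicle. Within groups the median standard deviation of the tested carriers was 0.24 on the log2 scale, beside 0.27 for all genes, and Slc7a8 had the highest at 0.51. The probe set shared by Slc16a5 and Armc7, which names no single gene, read 47.6 to 72.2 with vehicle and 56.3 to 85.6 with E2.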
